A study of Rattus norvegicus with 4 samples.

Results

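The ErbB system of cultured neonatal rat ventricular cardiomyocytes was followed here through 10 genes picked by name: the EGF-family ligand genes Hbegf, Areg, Ereg, Tgfa and Btc, the neuregulin gene Nrg1, and the receptor genes Egfr, Erbb2, Erbb3 and Erbb4. Each name belonged to a single identifier among the 32883 genes of the deposited table, and all 10 were among the 15257 genes that passed the filter on low counts. The cells came from ventricles of postnatal day 2 Sprague-Dawley rats, after a plating step of 1 h meant to remove non-cardiomyocytes, and were grown in medium with serum. The PE group (2 libraries) received 20 µM phenylephrine, an adrenergic agonist widely used to make such cells hypertrophic, for 24 h, and the control group (2 libraries) was left untreated; the groups shared everything else that the labels give. Strand-specific RNA-seq was done on total RNA depleted of ribosomal RNA. No label says that the libraries of a group came from separate cultures or animals, and the p-values therefore rest on a spread between libraries that may be technical.

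ErbB receptors are receptor tyrosine kinases that signal as pairs. Ligands of the EGF family are made as membrane-bound precursors and are cut free by metalloproteases. They then bind EGFR, ERBB4 or both, while neuregulin-1 binds ERBB3 and ERBB4. ERBB2 has no known ligand and serves as a partner, and ERBB3 has little kinase activity of its own. In the heart, neuregulin-1 is made largely by endothelial cells and reaches ERBB4 and ERBB2 on cardiomyocytes, and Gq-coupled receptors such as the alpha-1 adrenergic receptor can activate EGFR through the release of HB-EGF.

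Areg, Ereg and Btc follow one another on rat chromosome 14 in the RefSeq assembly GRCr8, in the gene order Btc, Areg, Ereg, while the other 7 genes lie apart from them. Promoter windows of 300 bases, from 250 bases before to 50 after the annotated start, were taken from RefSeq (GRCr8) and matched 7 of the 10 genes. Shown here are those of 3 genes that rose with PE (Hbegf, chr18:28390171-28390470, minus strand; Areg, chr14:17265592-17265891, minus strand; Tgfa, chr4:120175469-120175768, plus strand), that of Btc, the neighbour of Areg whose level did not pass the test (chr14:16992418-16992717, plus strand), and that of Erbb4, which fell (chr9:78045557-78045856, minus strand). They run 5′ to 3′ on the strand of the gene, and capitals mark matches to the cAMP response element TGACGTCA and to the TATA box TATAAA.
Hbegf: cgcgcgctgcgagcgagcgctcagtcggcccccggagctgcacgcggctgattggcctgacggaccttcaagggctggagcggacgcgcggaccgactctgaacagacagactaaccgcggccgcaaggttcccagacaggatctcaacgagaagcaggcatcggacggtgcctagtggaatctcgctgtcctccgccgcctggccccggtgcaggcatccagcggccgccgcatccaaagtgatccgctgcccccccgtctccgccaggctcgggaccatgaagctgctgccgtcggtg
Areg: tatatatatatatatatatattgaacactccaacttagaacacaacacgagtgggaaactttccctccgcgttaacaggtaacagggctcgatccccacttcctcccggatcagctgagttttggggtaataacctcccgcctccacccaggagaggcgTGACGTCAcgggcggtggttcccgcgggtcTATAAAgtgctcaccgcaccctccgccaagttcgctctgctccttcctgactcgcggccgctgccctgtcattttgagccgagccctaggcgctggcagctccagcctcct
Tgfa: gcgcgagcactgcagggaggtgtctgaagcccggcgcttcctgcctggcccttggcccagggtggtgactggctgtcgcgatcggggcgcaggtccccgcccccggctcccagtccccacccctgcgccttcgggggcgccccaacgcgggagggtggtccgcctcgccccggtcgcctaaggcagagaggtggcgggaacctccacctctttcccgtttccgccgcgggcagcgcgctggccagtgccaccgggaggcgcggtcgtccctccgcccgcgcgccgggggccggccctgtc
Btc: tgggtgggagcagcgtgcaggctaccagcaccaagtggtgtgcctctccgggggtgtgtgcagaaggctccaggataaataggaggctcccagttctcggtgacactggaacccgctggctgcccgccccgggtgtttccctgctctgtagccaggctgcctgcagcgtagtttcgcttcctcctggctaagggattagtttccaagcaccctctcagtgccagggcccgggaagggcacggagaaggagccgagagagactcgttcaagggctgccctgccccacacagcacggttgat
Erbb4: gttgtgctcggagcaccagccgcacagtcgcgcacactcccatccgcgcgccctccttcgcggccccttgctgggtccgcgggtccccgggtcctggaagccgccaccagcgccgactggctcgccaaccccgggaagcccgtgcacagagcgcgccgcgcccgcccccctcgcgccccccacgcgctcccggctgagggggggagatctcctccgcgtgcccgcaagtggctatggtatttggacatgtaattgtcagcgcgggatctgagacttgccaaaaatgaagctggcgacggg

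Among the 7 windows, both capitalised motifs were found in that of Areg alone. The TGACGTCA match started 91 bases before the annotated start and the TATAAA match 61 bases before it, and they do not overlap. Searched on both strands, TGACGTCA occurred in 612 of 33469 rat promoter windows of this length (1.83%) and TATAAA in 4760 (14.2%). The AP-1 motif TGAGTCA, the CArG box and the MEF2 box matched none of the 7 windows, and 4.63%, 1.64% and 0.565% of all windows. The GC box GGGCGG matched the windows of Areg, Tgfa, Btc, Egfr, Erbb2 and Erbb4, and 33.1% of all windows. The Areg window had 56% G or C and that of Tgfa 76.7%, against a median of 51.7% over all windows. A match or its lack describes these letters only.

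Total counts were 45637881 to 56948370 per library, and mitochondrial-genome transcripts took 4.61% and 4.76% of counts in the PE libraries, against 6.19% and 11.7% in control replicates 1 and 2. The cells carried the defining transcripts of cardiomyocytes, whose 8 markers summed to 12524 and 13269 CPM (counts scaled to a fixed library size) in the PE libraries, against 12513 and 14384 CPM in the control libraries. Transcripts of other cell types were present too. The 8 fibroblast markers summed to 8219 and 8632 CPM with PE, against 16078 and 12827 CPM in controls, with 0 of 7 tested markers higher and 3 lower. Most of that sum came from the collagen genes Col1a1 and Col3a1. Col3a1 was lower with PE (log2 fold change -1.35), and Col1a1 was not called (log2 fold change -0.59, edgeR adjusted p = 0.11). Without the collagens, left out after their values were seen, the other 5 markers summed to 2343 and 1680 CPM with PE, against 1576 and 2270 CPM in controls, so the groups overlapped. Of those 5, Pdgfra and Dpt were lower (log2 fold changes -0.67 and -1.99), while Dcn, Lum and Tcf21 were not called (log2 fold changes 0.50, 0.11 and 0.04). Of 8 macrophage markers none rose and 3 fell, of 6 mesothelial or epicardial markers 1 rose and 2 fell, of 4 tested mural markers 1 rose, and of 4 tested Schwann or neural crest markers none passed. Over all tested genes, 7.39% were called higher and 8.3% lower, and these marker lists are short. No marker with a row in the table was at 0 in any library. The plot of summed markers shows all lists.

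**Figure D1:**
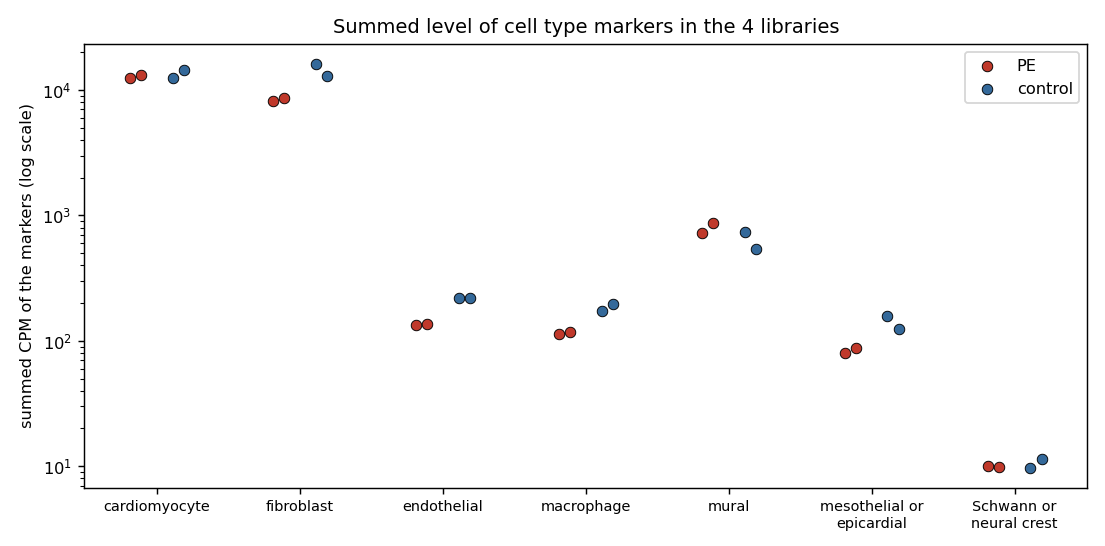
Summed CPM (log scale) of the markers of each cell type in the 2 PE libraries (red, left) and the 2 control libraries (blue, right). The fibroblast, endothelial, macrophage, and mesothelial or epicardial sums lie lower in both PE libraries than in both control libraries, while the cardiomyocyte sums overlap between the groups.

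PE raised 4 of the 5 EGF-family ligand genes, lowered Nrg1 and Erbb4, and Egfr, Erbb2, Erbb3 and Btc did not pass the test. Hbegf showed the largest rise of the 10, 6.97-fold. A change was called where the adjusted p of edgeR's quasi-likelihood test, with Benjamini-Hochberg adjustment over all 15257 tested genes, was under 0.05. Of the 10 genes, 4 were higher, against 7.39% of all tested genes, and 2 were lower, against 8.3%. In either direction these were 6 of 10, against 15.7%. The 10 genes were chosen with earlier results of these data known, so these shares are no test of the set. Values are CPM scaled by TMM-adjusted library sizes. CPM also follows transcript length, which the files do not hold, so no order of levels between genes is given, and a ratio of 2 genes' CPM is compared only between libraries.

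**Figure D2:**
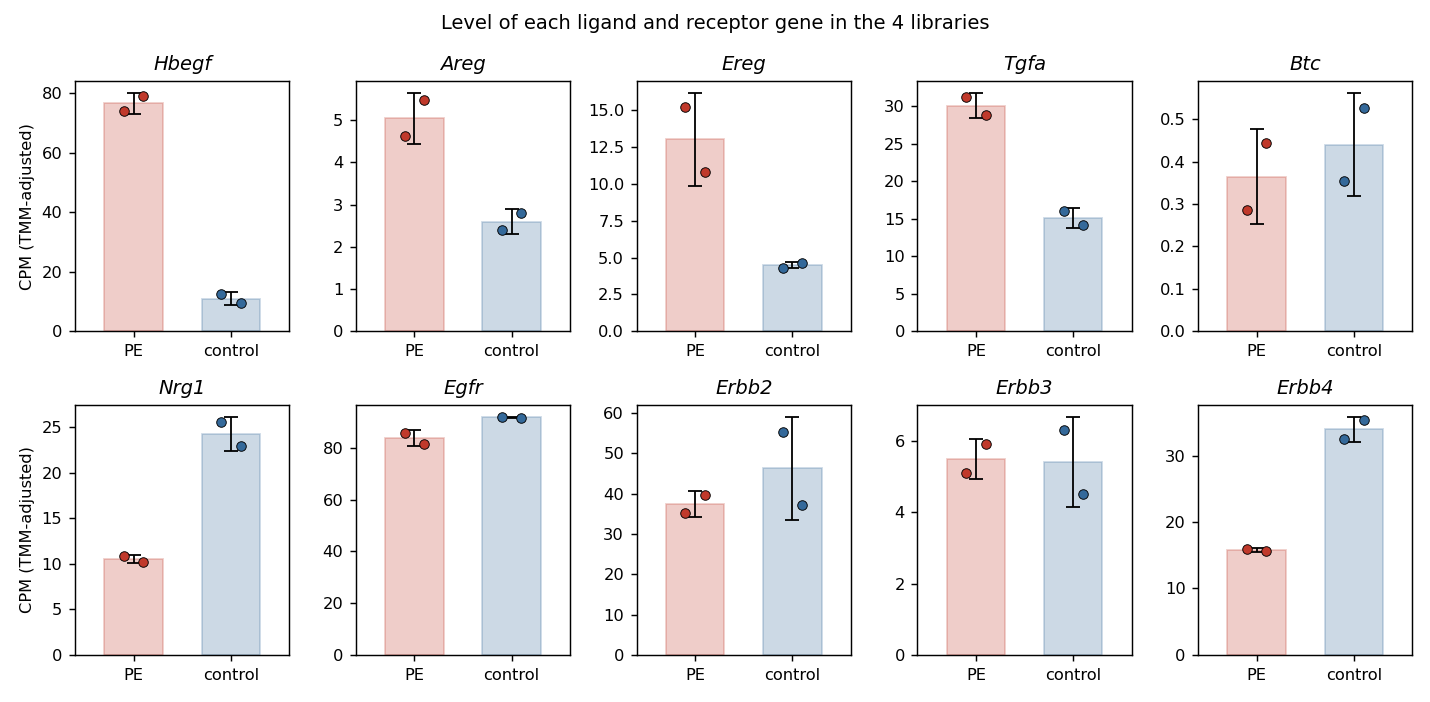
CPM of each gene in the 2 PE libraries (red) and the 2 control libraries (blue), with replicate 1 on the left of each pair; bars are means and error bars are SD (n = 2). PE libraries lie above both controls for Hbegf, Areg, Ereg and Tgfa, and below both for Nrg1, Erbb4 and, by a small margin, Egfr. The groups did not overlap in 56.7% of all tested genes.

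Hbegf (ENSRNOG00000018646) encodes heparin-binding EGF-like growth factor, a ligand of EGFR and ERBB4. It stood at 74.2 and 79.2 CPM in PE replicates 1 and 2, against 12.6 and 9.37 CPM in control replicates 1 and 2. Every PE library was several times above every control library, on 3737 or more counts with PE and 427 or more without. The mean was 76.7 ± 3.49 CPM with PE and 11 ± 2.28 CPM in controls (SD, n = 2 each). The log2 fold change of PE over control was 2.80 ± 0.20 (SE; 95% interval 2.36 to 3.24; adjusted p = 2.24e-05, edgeR), the 88th highest of the 15257 tested genes. Leaving out a library moved it no further than 2.61 to 3.04.

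Ereg (ENSRNOG00000002771) encodes epiregulin, which binds EGFR and ERBB4. Its levels were 15.3 and 10.8 CPM with PE, against 4.32 and 4.61 CPM in controls. PE lay above both controls, as in 28.5% of all tested genes. PE replicate 1 was well above PE replicate 2, whereas the controls lay close together. Ereg rose by 1.55 ± 0.23 on the log2 scale (95% interval 1.04 to 2.05; edgeR adjusted p = 0.00122). Leaving out PE replicate 1 gave 1.28, and leaving out PE replicate 2 gave 1.78.

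Tgfa (ENSRNOG00000016182) encodes transforming growth factor alpha, a ligand of EGFR. It was at 31.3 and 28.9 CPM with PE, against 16.0 and 14.2 CPM in controls. Each group was tight and the PE libraries were 1.99-fold higher on average. Tgfa rose by 1.00 ± 0.18 on the log2 scale (95% interval 0.60 to 1.39; edgeR adjusted p = 0.00366). When PE replicate 1 was left out and the spread came from the control pair alone, it was 0.94 and missed the threshold (adjusted p = 0.0607).

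Areg (ENSRNOG00000002754), the gene of amphiregulin, an EGFR ligand, had 4.61 and 5.47 CPM with PE, against 2.39 and 2.81 CPM in controls. The counts behind these levels were small, at 259 and 258 reads with PE and 128 in each control library. Areg rose by 0.96 ± 0.23 on the log2 scale (95% interval 0.43 to 1.48; edgeR adjusted p = 0.0203). Without PE replicate 2 it was 0.84 and did not pass (adjusted p = 0.16), whereas without PE replicate 1 it was 1.08 and did.

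Btc (ENSRNOG00000002728), which encodes betacellulin, a ligand of EGFR and ERBB4, was barely present, with 16 and 21 reads in the PE libraries, against 19 and 24 in the controls. That gave 0.285 and 0.445 CPM with PE, against 0.354 and 0.527 CPM in controls, and the groups overlapped. The log2 fold change was -0.27 ± 0.52, with an interval from -1.42 to 0.88 (edgeR adjusted p = 0.781). As a fold, the interval ran from 0.373 to 1.84 times the control level, so few reads limit what can be said of Btc. It was at 0.03 both without PE replicate 1 and without control replicate 2.

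The 5 EGF-family ligands together took 126 and 125 CPM with PE, against 35.6 and 31.5 CPM in controls. Hbegf gave 59.1% and 63.5% of that sum with PE, against 35.3% and 29.8% in controls. These are shares of reads, which also follow transcript length, but lengths do not differ between the libraries compared. The makeup of ligand reads thus moved towards Hbegf in both PE libraries. Macrophages can also make these ligands, and their markers summed to 113 and 117 CPM with PE, against 173 and 195 CPM in controls. Which cells carried the ligand transcripts was not tested.

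**Figure D3:**
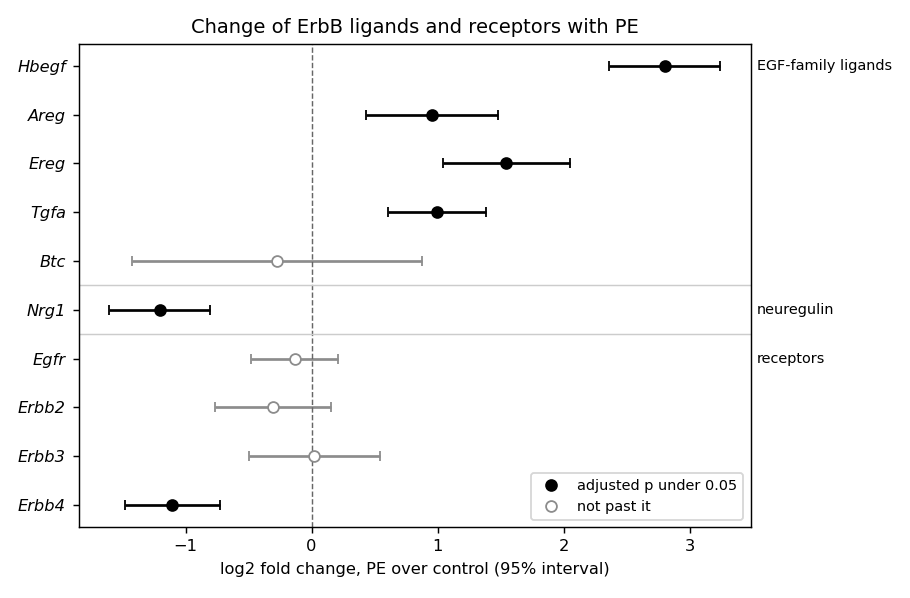
Log2 fold change of PE over control for each gene with its 95% interval from edgeR's fit; filled points had an adjusted p under 0.05. Hbegf lies at 2.80, Nrg1 at -1.20 and Erbb4 at -1.10, and the intervals of Btc, Egfr, Erbb2 and Erbb3 cross 0.

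Nrg1 (ENSRNOG00000010392), the neuregulin gene, moved the other way. It had 10.8 and 10.3 CPM with PE, against 25.6 and 23.0 CPM in controls. Nrg1 thus lay below both controls in the PE libraries, as did 28.1% of all tested genes. Its log2 fold change was -1.20 ± 0.18 (95% interval -1.61 to -0.80; edgeR adjusted p = 0.00143), a 2.31-fold lower mean, and it stayed between -1.28 and -1.12 when a library was left out. Nrg1 CPM per 100 CPM of Hbegf was 14.6 and 13.0 with PE, against 203 and 245 in controls.

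Summed endothelial markers were lower in the same libraries, though not every marker was. Of 7 tested endothelial markers, 4 fell, none rose and 3 did not pass, while 8.3% of all tested genes were lower and 7.39% higher. The median log2 fold change of these markers was -0.72, beside -0.0064 over all tested genes. Kdr, a VEGF receptor, had a log2 fold change of -0.81 ± 0.16 and Cdh5, vascular cadherin, of -0.95 ± 0.16 (edgeR adjusted p = 0.00587 and 0.00315). The 3 markers that did not pass were Cldn5 (log2 fold change -0.66), Egfl7 (0.06) and Tek (0.24). All 7 markers together summed to 133 and 136 CPM with PE, against 220 and 219 CPM in controls. Nrg1 was also lower relative to that sum. It was at 8.15 and 7.52 CPM per 100 CPM of the markers with PE, against 11.7 and 10.5 in controls. Log2 fold changes of the 7 markers ran from -1.54 (Emcn) to 0.24 (Tek), so this ratio depends on the markers summed. In bulk RNA, fewer cells of a type and less RNA per cell cannot be told apart. Which cells carried the Nrg1 transcripts was not tested.

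Among the receptors, Erbb4 (ENSRNOG00000014248) was the gene that passed the test. It encodes the neuregulin receptor of cardiomyocytes. Its levels were 15.9 and 15.6 CPM with PE, against 32.6 and 35.3 CPM in controls. Both groups were tight and well apart. Its log2 fold change was -1.10 ± 0.17 (95% interval -1.48 to -0.73; edgeR adjusted p = 0.00169), a 2.15-fold lower mean, and it ranged from -1.16 to -1.04 when a library was left out. Erbb4 CPM per 100 CPM of the summed cardiomyocyte markers was 0.127 and 0.118 with PE, against 0.260 and 0.245 in controls. Erbb4 was thus also lower relative to the sum of the cardiomyocyte markers. Of these 8 markers 2 rose, none fell and 6 did not pass, beside 7.39% higher and 8.3% lower over all tested genes. Their log2 fold changes ran from -0.66 to 0.81, with 4 above 0, so the ratio depends on the markers summed. Whether the share of cardiomyocytes differed between the groups was not tested.

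Egfr (ENSRNOG00000004332), a receptor of all 4 ligands that rose, had 85.8 and 81.5 CPM with PE, against 91.9 and 91.5 CPM in controls. Of those ligands, HB-EGF and epiregulin also bind ERBB4. The PE libraries were slightly lower and did not overlap the controls. Groups that do not overlap were common: PE lay below both controls in 28.1% of all tested genes and above both in 28.5%, 56.7% in all. The log2 fold change was -0.13 ± 0.16 (edgeR adjusted p = 0.63). Its interval of -0.48 to 0.21 does not reach the -1.10 of Erbb4, but it covers only the fitted spread between libraries. Hbegf CPM per 100 CPM of Egfr was 86.5 and 97.2 with PE, against 13.7 and 10.2 in controls.

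Erbb2 (ENSRNOG00000006450), the ligand-less partner receptor, was at 35.1 and 39.8 CPM with PE, against 55.3 and 37.2 CPM in control replicates 1 and 2. Control replicate 1 stood above the other libraries, and control replicate 2 lay between the PE libraries. PE over control came to -0.31 ± 0.21 on the log2 scale (95% interval -0.77 to 0.15; edgeR adjusted p = 0.38). It rested on which control was used, at 0.02 without control replicate 1 (adjusted p = 0.953) and -0.56 without control replicate 2 (adjusted p = 0.00219), where the spread came from the PE pair alone.

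Erbb3 (ENSRNOG00000004964), the kinase-impaired neuregulin receptor, had 5.11 and 5.91 CPM with PE, against 6.32 and 4.52 CPM in controls. The PE libraries lay between the controls. On the log2 scale the difference was 0.02 ± 0.23, with an interval of -0.50 to 0.54 (edgeR adjusted p = 0.968), and its sign changed with the scaling, at -0.0025 with upper-quartile factors and -0.03 with library sizes alone. The markers of Schwann and neural crest cells, which use ERBB3, summed to 10.0 and 9.79 CPM with PE, against 9.75 and 11.5 CPM in controls.

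Ratios of receptor transcripts within a library were also compared. Erbb4 CPM per 100 CPM of Egfr was 18.6 and 19.1 with PE, against 35.4 and 38.6 in controls. Per 100 CPM of Erbb2 it was 45.4 and 39.2 with PE, against 58.8 and 94.9 in control replicates 1 and 2, where the spread of Erbb2 between the controls carries over. Erbb2 per 100 CPM of Egfr was 40.9 and 48.8 with PE, against 60.2 and 40.6 in controls, and did not separate the groups.

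**Figure D4:**
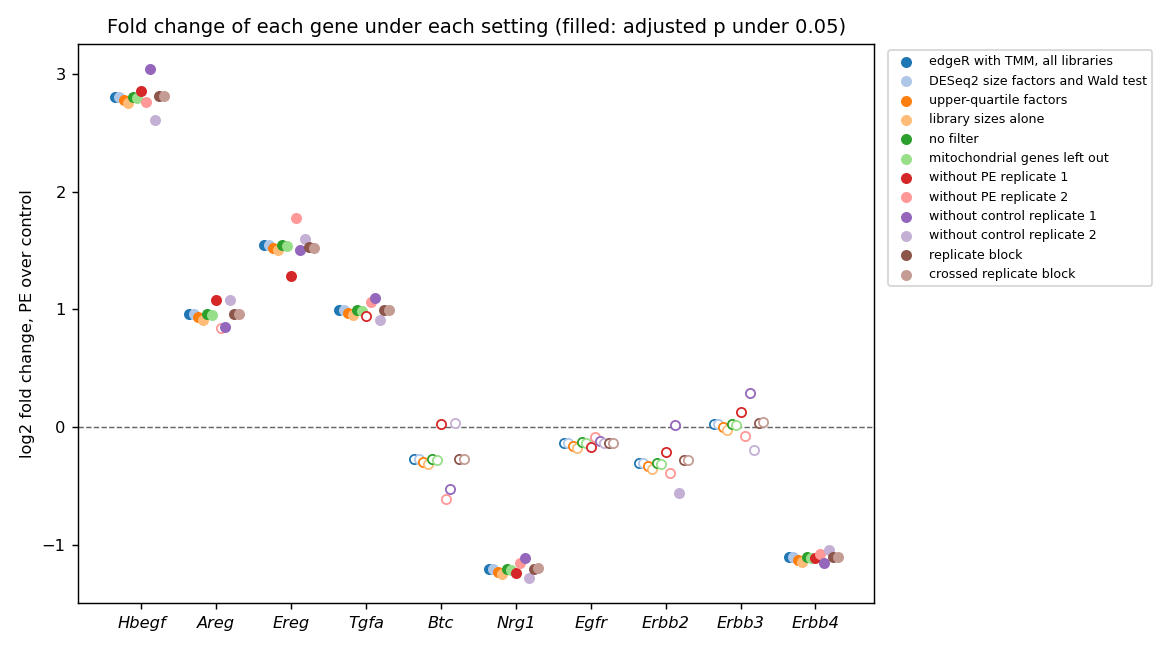
Log2 fold change of PE over control for each gene under each setting; filled points had an adjusted p under 0.05. Hbegf, Ereg, Nrg1 and Erbb4 were past the threshold under every setting shown, Areg and Tgfa each missed it when a PE library was left out, and Erbb2 moved between 0.02 and -0.56 with the control library left out.

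In the authors' deposited table the same 6 genes had an adjusted p under 0.05, with 4 higher and 2 lower, against 16.8% of the genes given an adjusted p there. Hbegf's log2 fold change in the authors' deposited table was 2.81 and that of Erbb4 was -1.10.

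Other genes of the pathway were called about as often as genes at large. Of 87 listed pathway genes, 81 were tested, and 7 rose, 4 fell and 70 did not pass (13.6% called, beside 15.7% of all tested genes); their median log2 fold change was 0.03. The enzymes that release the ligands showed no called change. These are ADAM metalloproteases such as ADAM17, which cuts several EGF-family precursors, and the iRhom proteins that bring ADAM17 to the surface. Of the 13 genes of sheddases and their cofactors, 1 rose, 2 fell and 10 did not pass (median log2 fold change -0.15), and all 3 that passed encode tissue inhibitors of metalloproteases. Timp1 was at 54.4 ± 3.42 CPM with PE and 20.3 ± 5.72 CPM in controls (SD, n = 2 each), a log2 fold change of 1.42 ± 0.21 (edgeR adjusted p = 0.00128). Timp3, which inhibits ADAM17, was at 51.5 ± 2.57 CPM with PE and 89.7 ± 11.7 CPM in controls, at -0.80 ± 0.17, and Timp2 was at -0.73 ± 0.17 (edgeR adjusted p = 0.00948 and 0.0143). Leaving out PE replicate 1 ended both calls, with Timp3 at -0.75 (adjusted p = 0.255) and Timp2 at -0.67 (adjusted p = 0.354). Leaving out PE replicate 2 did so too, at -0.85 for Timp3 (adjusted p = 0.151) and -0.79 for Timp2 (adjusted p = 0.204). The summed fibroblast markers, lower in the same PE libraries through the collagens, are given above, and their part in these values was not tested.

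Surface molecules that hold ligands or work beside the receptors were the pathway list with the largest share called. Of 8 genes, 3 were higher and 5 did not pass (37.5% called, beside 15.7% of all tested genes), with a median of 0.30. Itga6, an integrin subunit, was at 181 ± 3.34 CPM with PE and 56.2 ± 1.22 CPM in controls, a log2 fold change of 1.69 ± 0.16 (edgeR adjusted p = 9.88e-05). Its partner Itgb1 was at 0.90 ± 0.17, and Cd44, a hyaluronan receptor that can carry HB-EGF, at 0.77 ± 0.17 (edgeR adjusted p = 0.00591 and 0.0132). Leaving out PE replicate 1 ended the calls of Itgb1, then at 0.81 (adjusted p = 0.149), and of Cd44, at 0.66 (adjusted p = 0.324). Cd44 was at 0.89 when PE replicate 2 was left out and missed the threshold again (adjusted p = 0.0879).

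Of 18 genes of receptor turnover and inhibition, 2 rose, 1 fell and 15 did not pass (median 0.03). Lrig1, which promotes the breakdown of ErbB receptors, was at 89.4 ± 4.55 CPM with PE and 54.0 ± 10.3 CPM in controls (log2 fold change 0.73 ± 0.18), and Socs5, a suppressor of cytokine and EGFR signalling, at 160.5 ± 1.95 CPM with PE and 95.4 ± 2.11 CPM in controls (0.75 ± 0.15). Sh3kbp1, a CBL-binding adaptor of receptor uptake, was at -0.69 ± 0.19, and at -0.41 without control replicate 2. EdgeR's adjusted p-values were 0.0215 for Lrig1, 0.00832 for Socs5 and 0.0379 for Sh3kbp1. Inside the cell, 1 of 23 tested adaptor and lipid kinase genes fell (median 0.01) and 1 of 15 genes of the Ras and ERK arm rose (median -0.01), and the rest did not pass. Gab1, a docking protein downstream of ErbB receptors, fell by 0.68 ± 0.16 on the log2 scale, at 81.7 ± 5.93 CPM with PE and 131 ± 2.7 CPM in controls (edgeR adjusted p = 0.0156). Map2k1, which encodes the ERK kinase MEK1, was at 88.7 ± 0.0704 CPM with PE and 46.5 ± 5.69 CPM in controls, a log2 fold change of 0.93 ± 0.17 (edgeR adjusted p = 0.00393). Of the 11 pathway genes that passed, 9 no longer did when PE replicate 1 was left out (adjusted p = 0.0635 to 0.431). Leaving out PE replicate 2 ended 8 of the calls (adjusted p = 0.0591 to 0.374), with Lrig1, Socs5, Sh3kbp1, Gab1 and Map2k1 among them both times. Timp1 and Itga6 passed under every setting tried.

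None of the 3 tested genes of ERBB2 chaperones passed in edgeR, and those with the highest CPM, which also follows length, were Hsp90ab1 at 0.21 ± 0.17 and Cdc37 at 0.16 ± 0.16 (adjusted p = 0.468 and 0.563). The other listed chaperone gene, Hsp90aa1, had 0 to 6 reads per library and did not pass the filter on low counts. Its change is therefore unknown, and why it had so few reads was not tested. Hsp90ab1 passed without control replicate 1 (0.33, adjusted p = 0.0398), with the spread from the PE pair alone. Of the other listed ligand genes, Egf was the single gene tested, at 0.118 ± 0.136 CPM with PE and 0.168 ± 0.0518 CPM in controls, which is too few reads to show a difference (log2 fold change -0.46 ± 0.88, edgeR adjusted p = 0.781). Nrg2 and Nrg4 did not pass the filter on low counts. Epgn and Nrg3, also listed, matched no gene name in the deposited data, so their change is unknown.

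**Figure D5:**
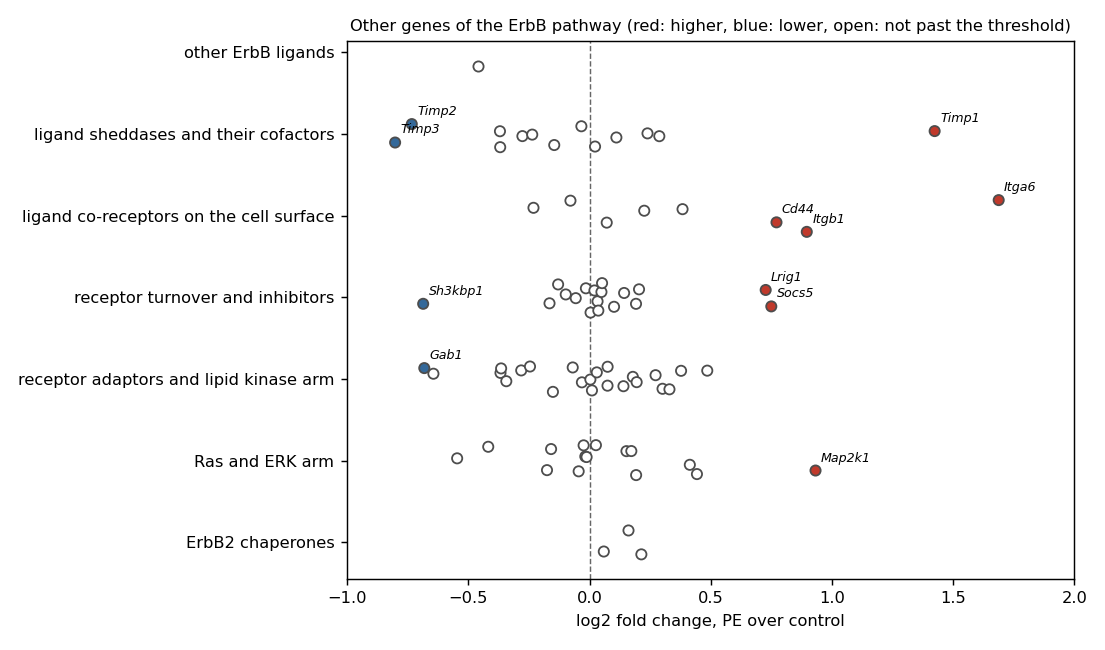
Log2 fold change of PE over control for the 81 tested pathway genes, by list, with red for higher, blue for lower and open circles for genes not past the threshold; vertical scatter within a list has no meaning. Timp1 (1.42) and Itga6 (1.69) lie farthest from 0.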

How the data were processed

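RNA-seq libraries of the PE (2) and control (2) groups were compared. The deposited table holds raw counts per gene. Cutadapt 2.0, STAR 2.4.2a, featureCounts 1.6.4 and the build Rnor_6.0 are named, per the submitters' processing notes, and these notes give neither annotation nor strand setting, so reads of overlapping or antisense genes are uncertain. The authors' second table, per its file headers, gives log2 fold changes with standard errors, a Wald score, p-values, a mean signal of size-factor-scaled counts, and gene names. Groups came from the sample titles.

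Counts were fitted with edgeR 4.0.16 (limma 3.58.1, R 4.3.3): TMM factors, filterByExpr (minimum count 10, minimum total 15), common dispersion 0.0245, 2 residual and 8.1 prior degrees of freedom, quasi-likelihood F test, Benjamini-Hochberg threshold 0.05 over 15257 genes. Intervals are 95% and cover the fitted spread. The code was tested on simulated data. Chi-square per degree of freedom between counts was 19.8 for the PE pair and 133 for the control pair, so neither pair is a single library under 2 names. Alternatives were DESeq2 1.42.0, other scalings, no filter, no mitochondrial genes, each library left out and replicate blocks. The 10 genes and all lists were chosen with earlier results of these data known. All 10 were named. Of each pathway list, up to 4 called genes with the largest change, or else the 2 with the highest mean CPM, could be named. Of each marker list, the 2 with the highest mean CPM could be named. The other fibroblast markers and further endothelial markers were named after their values were seen. A symbol with several identifiers was read from the one with the most counts.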

Additional observations from a re-analysis of the deposited data

How the results depend on the processing

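Of 110 values for the 10 genes under the alternatives, 100 kept their direction and their side of the threshold. With all libraries kept, every alternative called the same numbers, 4 higher and 2 lower, including DESeq2, other scalings, no filter and mitochondrial genes left out. Leaving out each library in turn gave 0.84 to 1.08 for Areg, 0.91 to 1.09 for Tgfa, -0.61 to 0.034 for Btc, -0.56 to 0.016 for Erbb2, -0.20 to 0.29 for Erbb3 and -2.86 to 0.34 for Egf on the log2 scale; the cause was not tested. Btc was at 0.027 without PE replicate 1 and 0.034 without control replicate 2, Erbb2 at 0.016 without control replicate 1, and Erbb3 at -0.08 without PE replicate 2 and -0.20 without control replicate 2. Erbb3 was at -0.0025 with upper-quartile factors and -0.029 with library sizes alone. Over all genes, leaving out a library gave 604 to 2398 higher and 601 to 2389 lower calls, against 1127 and 1266, and in the pathway lists 2 to 14 higher and 0 to 13 lower, against 7 and 4. With 1 library in a group, the spread comes from the other pair, and the control pair differed more.

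Replicate numbers are shared by the groups but no label says what they pair. Across genes, the difference between replicates 1 and 2 in PE correlated at -0.23 with that in control. With the replicate block, 913 genes were higher and 1051 lower, 6 pathway genes were higher and 2 lower (Lrig1, Sh3kbp1 and Gab1 lost their calls), and the same 4 and 2 counts held among the 10 genes. With crossed numbers as the block, chosen after seeing the data, 2270 genes were higher and 2407 lower, with 12 and 9 in the pathway lists. Depth limits Btc and Egf, which had few reads.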
